A study of Mus musculus with 19 samples.

Results

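The Ifit gene cluster on mouse chromosome 19 holds Ifit1, Ifit2 and Ifit3, and its accessible chromatin was read from a list of ATAC-seq peaks. Members were all peaks sharing at least 1 base with chromosome 19 from 34500000 to 34670000 (mm39), and 43 of the 140383 listed peaks qualified. The 3 genes lie on the plus strand, with approximate starts at 34528100 for Ifit2, 34560900 for Ifit3 and 34618270 for Ifit1, so that 32.8 kb separates the first pair and 57.4 kb the second. ATAC-seq marks open DNA by the insertion of adapters with Tn5 transposase.

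The cells were primary bone marrow-derived macrophages (BMDM) from 19 samples in 10 groups. Wild-type mice carried Csf1r-Cre, and the deleted cells came from Smarca5lox/lox Csf1r-Cre mice, so that both genotypes carry a Cre recombinase under a promoter active in the macrophage lineage. All cells received 4-hydroxytamoxifen daily during 7 days of culture. Each genotype was left untreated or was given LPS (10 ng/ml) or IFNβ (100 U/ml), in either case for 1 or 2 h. Every group had 2 samples except wild-type cells given IFNβ for 1 h, which had 1, and the labels do not say whether samples of a group came from separate animals. The peak list gives a single set of values per peak for all of these samples together, so no effect of Smarca5 loss, LPS or IFNβ on the Ifit genes could be measured and no replicate error applies. Depth is unknown, and marker genes of macrophages or other cells were not analysed here because no gene annotation of mm39 was used.

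IFIT proteins are built from tetratricopeptide repeats, are among the proteins that cells make most strongly after interferon, and bind viral RNA or the translation machinery. Many genes that interferon induces carry a DNA element called the interferon-stimulated response element (ISRE) near their start, which is bound by interferon regulatory factors. Macrophages also induce these genes after LPS, in large part through the interferon that they secrete.

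The start-proximal sequences are shown because each of the 3 genes had a peak at its start. They are RefSeq sequences of GRCm38.p6, an earlier build than that of the peaks, so peaks and letters were not overlaid. The 250 bases before the start are given for Ifit2 (NCBI Gene 15958, the first of 2 starts), Ifit3 (15959) and its neighbour Ifit3b (667370). For Ifit1 (15957) the 145 bases that separate its start from the divergent start of Ifit1bl2 (112419) are given. All read 5′ to 3′ on the plus strand and end at the base before the start, and capitals mark the ISRE core, GAAANNGAAA, which here lies on the opposite strand.
Ifit2: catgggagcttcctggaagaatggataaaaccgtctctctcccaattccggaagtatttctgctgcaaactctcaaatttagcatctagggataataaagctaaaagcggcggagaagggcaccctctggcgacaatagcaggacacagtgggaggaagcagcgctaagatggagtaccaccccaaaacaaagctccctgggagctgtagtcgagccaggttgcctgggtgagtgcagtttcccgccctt
Ifit3: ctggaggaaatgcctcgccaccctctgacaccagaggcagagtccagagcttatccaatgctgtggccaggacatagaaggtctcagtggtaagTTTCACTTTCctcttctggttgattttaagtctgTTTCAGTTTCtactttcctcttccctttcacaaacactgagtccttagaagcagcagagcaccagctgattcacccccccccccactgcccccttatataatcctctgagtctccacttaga
Ifit3b: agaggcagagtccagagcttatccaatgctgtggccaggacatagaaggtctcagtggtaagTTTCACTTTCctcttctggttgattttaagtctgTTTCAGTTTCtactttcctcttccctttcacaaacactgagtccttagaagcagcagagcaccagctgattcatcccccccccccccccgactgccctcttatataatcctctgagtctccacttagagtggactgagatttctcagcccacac
Ifit1: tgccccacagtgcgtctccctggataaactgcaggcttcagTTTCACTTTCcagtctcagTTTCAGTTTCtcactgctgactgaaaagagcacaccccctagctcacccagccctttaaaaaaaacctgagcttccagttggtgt

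Ifit3 and Ifit1 each held 2 ISRE cores in front of the start. Those of Ifit3 lay at positions -156 to -147 and -122 to -113, counted from -1 at the base before the start. In Ifit1 they lay closer, at -104 to -95 and -85 to -76. Read on the minus strand, the first core was GAAAGTGAAA and the second GAAACTGAAA in both genes. The Ifit1 pair stands between 2 starts that point away from each other, and is therefore also the pair of Ifit1bl2, where it lies at -70 to -61 and -51 to -42. Neither listed start of Ifit2 had the core in its window of 250 bases before to 50 after the start, which says only that these letters are not in those windows.

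Over the family, the core was found at 5 of 6 Ifit genes, counting Ifit1bl1 with 1 core at each of its 2 starts, and in 6 of 9 promoter windows. These windows are not independent, since Ifit1 and Ifit1bl2 share their pair of cores, Ifit3 and Ifit3b are near copies, and the windows of the 2 Ifit1bl1 starts were 87.1% identical. Among all 32851 windows in the table, 3.44% held it on either strand. The stricter form followed by CT, GAAANNGAAACT, was in 4 of the 9 family windows and in 0.271% of all windows. Of 40 genes in a list of interferon-inducible genes, 32 were matched in the table; outside the Ifit family 14 of 26 held the core, among them Isg15 with 3 cores and Cxcl10 with 1. That list was drawn up from what is known of these genes, so a high share is no independent evidence. The core of PU.1 sites, GAGGAA, was in 6 of the 9 family windows against 28.3% of all windows, but not in that of Ifit1. PU.1 is the factor that opens much macrophage chromatin. A loose NF-kB core, GGGANNNNNCC, was in 0 of 9 family windows against 19.3% of all windows, and so few related windows set no limit on such a share. The TATA box letters TATAAA were in 3 of 9 against 13.6%. These were both windows of Ifit1bl1 and 1 of Ifit1bl2, and no window of Ifit1, Ifit2 or Ifit3 had the letters. Other forms of the TATA box were not searched, and the printed Ifit3 and Ifit3b sequences hold tatataa. PU.1 and ISRE matches partly overlap at Ifit3 and Ifit3b, where GAGGAA at -149 to -144 of Ifit3 shares 3 bases with the first core.

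**Figure D1:**
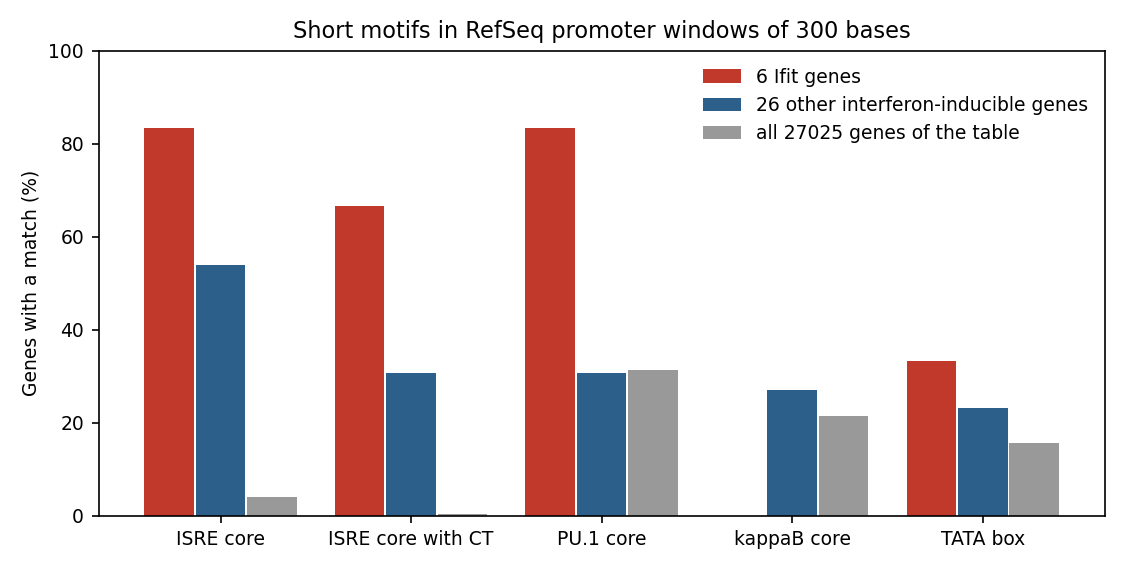
Share of genes (percent, vertical axis) with a motif match on either strand in any RefSeq promoter window, for the 6 Ifit genes (red), 26 other listed interferon-inducible genes (blue) and all 27025 genes of the table (grey). The ISRE core was found at 5 of the 6 Ifit genes and at 3.99% of all genes. The kappaB pattern GGGANNNNNCC was found at 0 of 6 and at 21.4%, and other spacings for NF-kB sites were not searched.

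The sequences of Ifit3 and Ifit3b also limit what a short read can show. Their promoter windows were 94.5% identical over 274 aligned positions and shared an unbroken identical run of 169 bases, longer than the 51 bases of each sequenced read. How reads that match both copies were placed is not given in the sources used here. Values at the Ifit3 start, and at any peak on the Ifit3b copy, are uncertain for that reason. Windows of the 2 Ifit1bl1 starts shared an identical run of 52 bases. The longest such run between Ifit3 and Ifit1 was 13 bases.

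At the starts, the 3 genes had broad peaks with folds above the list median of 9.85. Fold is the authors' enrichment over local background, and q the adjusted p of the peak caller; both serve only to describe and rank peaks within the list. The Ifit1 peak, at 34617944 to 34618491, was the strongest of the 3, with a fold of 18.4 and a −log10 q of 458. It was 548 bp wide, reached from 326 bp before to 221 bp after the approximate start, and had its summit 26 bp before it. In GRCm38.p6, 145 bases separate this start from the divergent start of Ifit1bl2. If that spacing holds in mm39, the peak covers both starts and its values are not those of Ifit1 alone. The Ifit3 peak, at 34560395 to 34561005, had a fold of 15.9, a −log10 q of 282 and a width of 611 bp. Its summit lay 23 bp past the start, although most of the peak lay before it, from 505 bp upstream to 105 bp downstream. The Ifit2 peak, at 34527921 to 34528501, was the weakest, with a fold of 13.3 and a −log10 q of 238 over 581 bp. It reached the other way, from 179 bp before to 401 bp after the start, with a summit 82 bp upstream.

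In order of fold the start peaks therefore ran Ifit1, Ifit3, Ifit2, and −log10 q gave the same order. Without values per sample, it cannot be said whether neighbours in this order differ beyond their spread. Their folds equalled or exceeded those of 81.9%, 75.8% and 67.1% of all listed peaks. By −log10 q the same peaks equalled or exceeded 94.1%, 89.0% and 86.8% of the list, and by width 94.7%, 96.5% and 95.7%. Starts are known here only to the nearest 10 bp for Ifit1 and 100 bp for the others, which sets the precision of these distances.

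Ifit1 had a companion peak upstream that was the narrowest member and the most significant for its fold. It spanned 105 bp, from 34617371 to 34617475, with its summit 818 bp before the start and 468 bp of unlisted sequence before the start peak. Its fold of 5.45 equalled or exceeded only 13.9% of the list, yet its −log10 q of 184 equalled or exceeded 83.2%. Peaks in the same hundredth of the list by fold had a median −log10 q of 13.3, so the companion stood 13.8 times above them. Companion of Ifit1 is only a label for this peak. With the GRCm38.p6 spacing it would lie past the divergent Ifit1bl2 start, on the side toward which that gene is transcribed. For Ifit2 and Ifit3 the nearest other peaks lay 2092 bp and 2649 bp before the start.

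**Figure D2:**
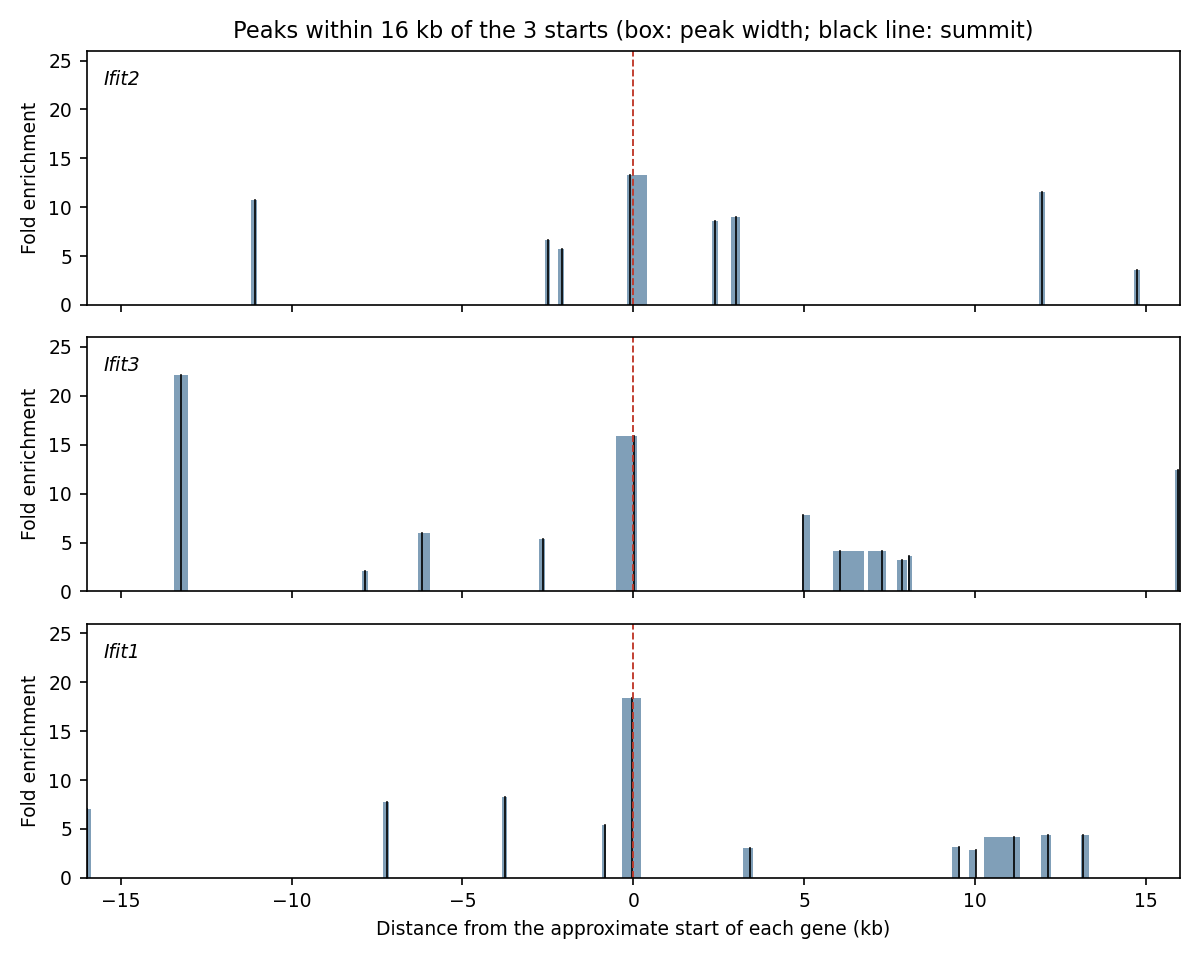
Peaks within 16 kb of the approximate start of Ifit2, Ifit3 and Ifit1 (horizontal axis, kb, transcription to the right); box width is peak width, height is fold enrichment, and a black line marks the summit. Each start lies in a broad peak with a fold of 13.3 to 18.4, and low peaks stand in a row from 4.98 to 8.08 kb past the Ifit3 start and from 9.55 to 13.2 kb past the Ifit1 start.

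The strongest peaks of the cluster were not at the 3 starts. Folds of 20 or more were seen at 5 of the 43 peaks, against 15.0% of the list, and none of these was a start peak of Ifit2, Ifit3 or Ifit1. Starts of the other Ifit genes were not placed in mm39, so no peak was assigned to them, although the Ifit1 start peak may also cover that of Ifit1bl2. The highest, with a fold of 33.1 and a −log10 q of 1065, spanned 400 bp from 34504689 to 34505088, 23.2 kb before Ifit2. In the gene order of GRCm38.p6 the coding gene before Ifit2 is Lipa, a lysosomal lipase gene on the minus strand. Between them lies Gm31417, a long non-coding RNA gene on the same strand as Lipa. The mm39 start of neither gene was used here, so the peak was not assigned to either. Next came an 801 bp peak from 34584754 to 34585554, with a fold of 28.0 and a −log10 q of 783, at 24.4 kb past the Ifit3 start. The order of genes between Ifit3 and Ifit1 is Ifit1bl1, Ifit3b, Ifit1bl2 and the pseudogene Cnn2-ps in GRCm38.p6. These genes had no mm39 position here, so the peak was not assigned to one of them. Its summit lay 24425 bp past the approximate Ifit3 start. In GRCm38.p6 the last bases before the starts are 34583528 for Ifit3 and 34607956 for Ifit3b, which is a closely similar spacing. The peak may therefore lie at the Ifit3b start, which was not tested with mm39 positions. In that case the limit on reads shared by Ifit3 and Ifit3b applies to its fold and −log10 q. Another peak of the same stretch, from 34579390 to 34579680, had a fold of 21.3 and a −log10 q of 358, 18.6 kb past Ifit3. Between Ifit2 and Ifit3, the peak from 34547449 to 34547860 had a fold of 22.1 and a −log10 q of 477, 13.2 kb before the Ifit3 start. The last of the 5 lay 21.3 kb past Ifit1, from 34639486 to 34639909, with a fold of 22.6 and a −log10 q of 207, toward Slc16a12, which encodes a transporter of the monocarboxylate family.

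**Figure D3:**
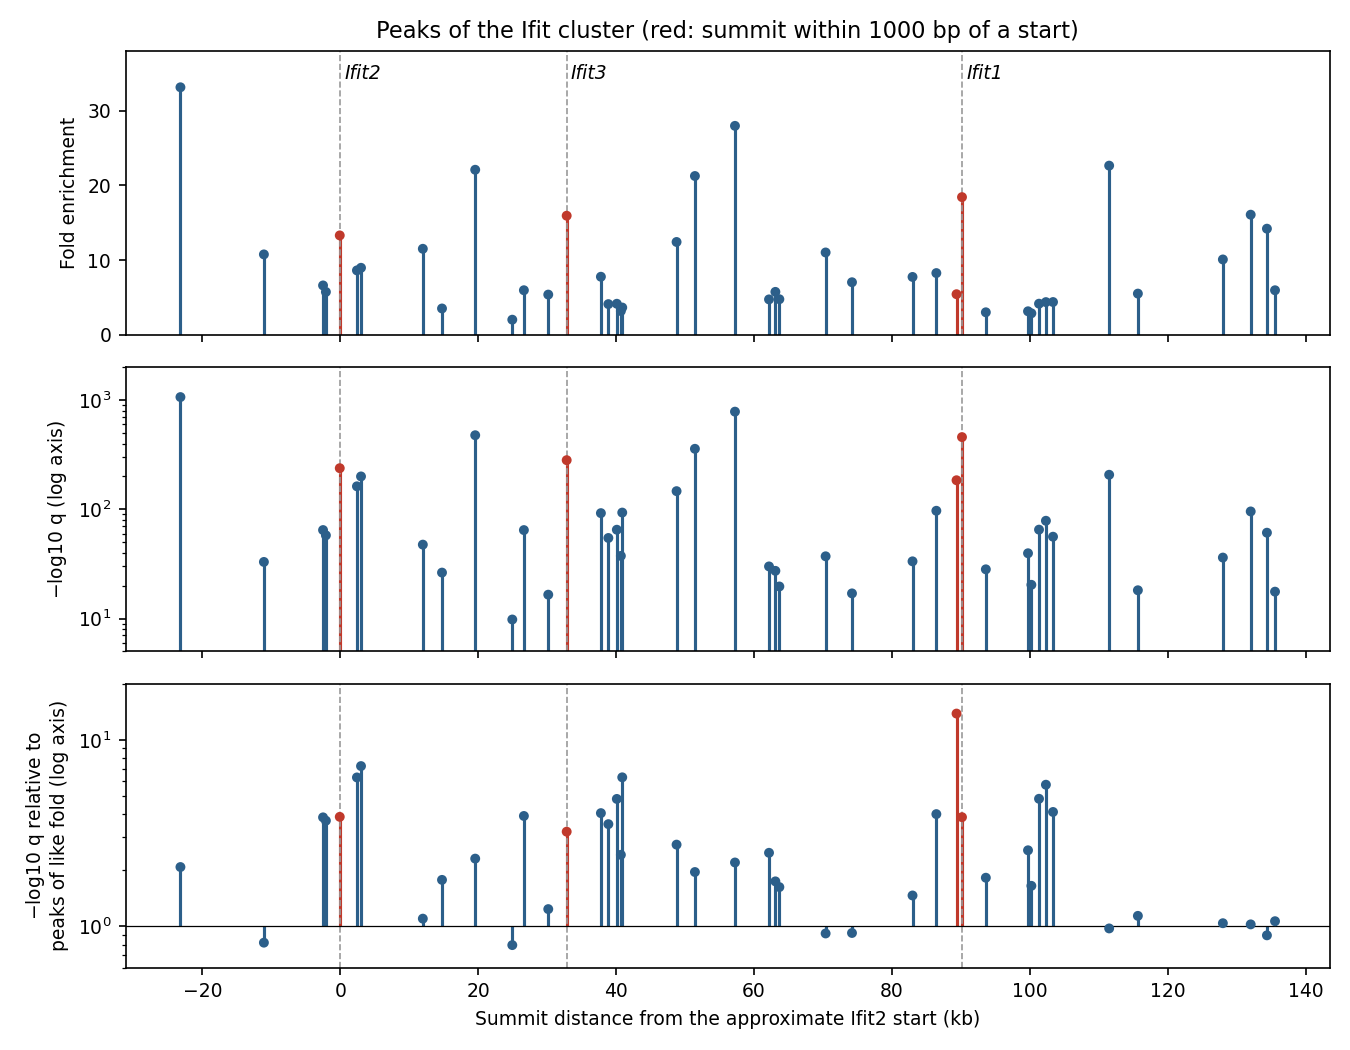
The 43 peaks by summit distance from the approximate Ifit2 start (horizontal axis, kb), with fold enrichment (top), −log10 q (middle, log axis) and −log10 q divided by the median of peaks of like fold (bottom, log axis, line at 1). Red marks the 4 peaks within 1000 bp of a start and dashed lines mark the starts; none of the 5 peaks with a fold of at least 20 is red.

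The cluster was crowded with peaks. Its 43 peaks in 170 kb amount to 253 per Mb, 3.22 times the 78.4 per Mb of chromosome 19, and they covered 7.58% of the window against 1.97% of the chromosome. When the autosomes were tiled with 14449 windows of the same length, 112 windows, or 0.775%, held at least 43 peaks; the median window held 4 and the fullest 59. On chromosome 19 this was so for 6 of 360 windows. Density was highest between the Ifit3 and Ifit1 starts, with 18 peaks, or 314 per Mb, and 10.4% of the sequence covered. Between Ifit2 and Ifit3 there were 8 peaks at 244 per Mb, past Ifit1 12 peaks at 232 per Mb, and before Ifit2 5 peaks at 178 per Mb. The longest stretch without a peak, 12.2 kb, ran from 34643813 to 34655979, beyond Ifit1.

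**Figure D4:**
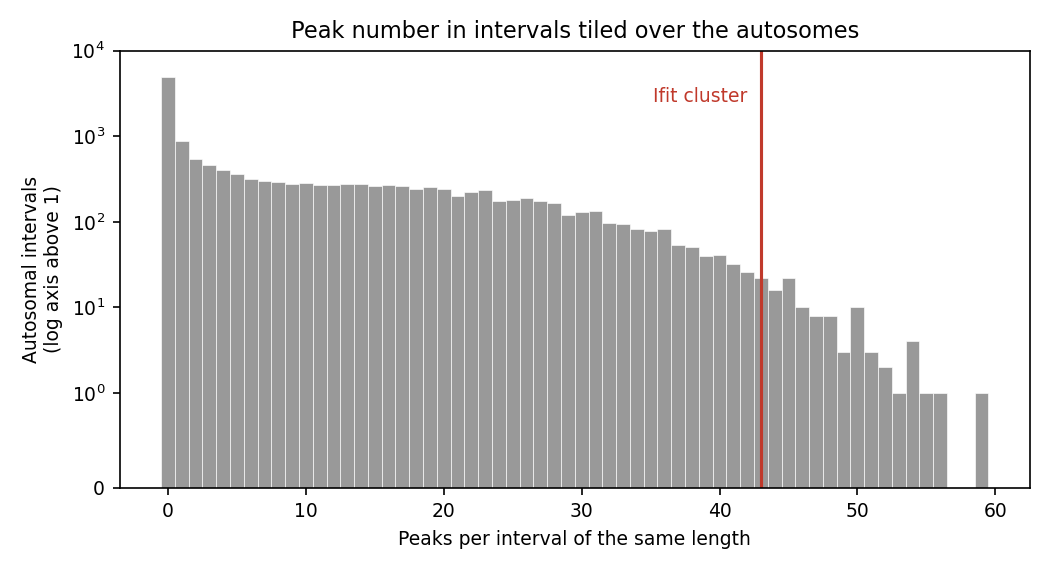
Number of autosomal windows (vertical axis, log above 1) by the number of peaks they hold (horizontal axis), for windows as long as the Ifit cluster. The red line marks the 43 peaks of the cluster, a number that 112 of 14449 windows reach or exceed.

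Most members had a high −log10 q for their fold. The median fold was 6.62 and the range 2.04 to 33.1, against a median of 9.85 in the list and 9.76 on chromosome 19. The median −log10 q was 61.0, against 45.3 in the list and 48.3 on the chromosome. A fold below and a −log10 q above the list median were found together in 14 of 43 peaks. The share of the whole list with both was not computed, so this count does not set the cluster apart. A fold under 5 was found in 14 of 43 peaks, against 10.4% of the list. Set beside peaks in the same hundredth of the list by fold, 37 of 43 members had a −log10 q above the median, against 50.0% of the list. At least 2 times that median was reached by 24 of 43, against 21.0% of the list. Peaks of 500 bp or more numbered 7 of 43, against 7.35%, while the median width of 205 bp was close to the 196 bp of the list.

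**Figure D5:**
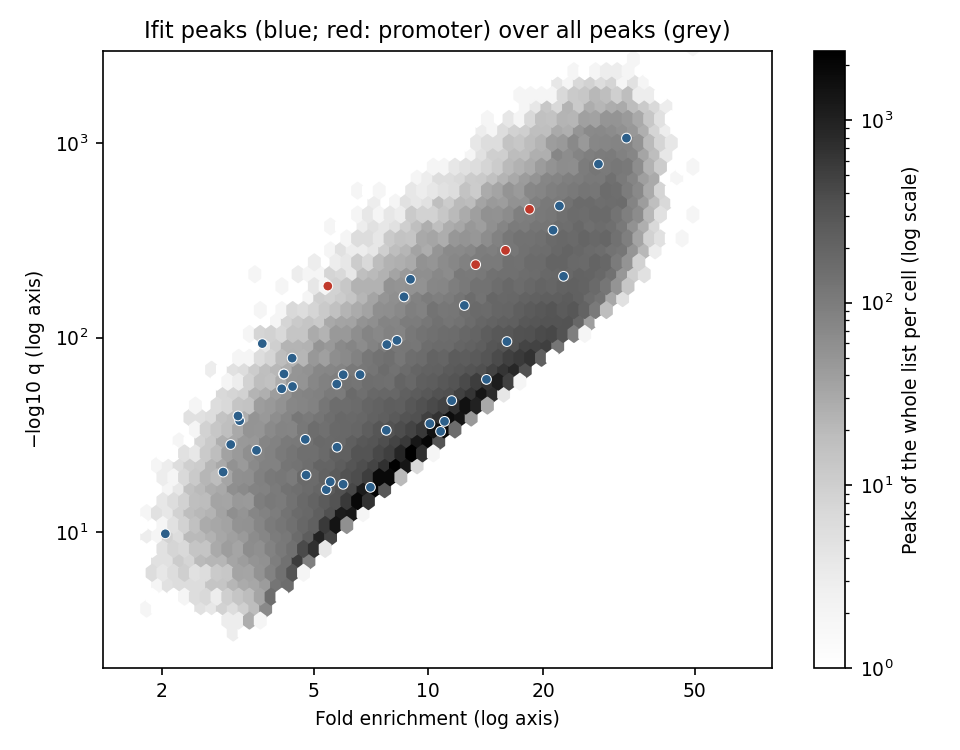
Fold enrichment (horizontal axis) and −log10 q (vertical axis), both on log axes, for the 43 Ifit peaks (blue, or red within 1000 bp of a start) over the density of all listed peaks (grey); 19 listed peaks lie outside the axes. Of the 43 Ifit peaks, 37 are above the median −log10 q of peaks with like fold.

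Low peaks stood in rows past the starts of Ifit3 and Ifit1, but rows were common in the window. By the same rule 6 rows held 24 of the 43 peaks, and the share of the whole list in such rows was not computed. The others lay around the Ifit2 start, at and before the Ifit1 start, 26.5 to 28.0 kb before Ifit1 and 41.8 to 45.4 kb past it. Past Ifit3, 5 peaks with summits from 4.98 to 8.08 kb filled 2050 bp of a 3.21 kb stretch, from 34565853 to 34569059. Their folds were only 3.20 to 7.78, with −log10 q from 37.4 to 93.3, which is 2.42 to 6.29 times the median of peaks of like fold. The widest of them measured 892 bp, and the last 2 were separated by 15 bp. Past Ifit1, another 5 peaks with summits from 9.55 to 13.2 kb filled 1997 bp of 4.01 kb, from 34627595 to 34631603. Folds there were 2.89 to 4.40 and −log10 q 20.4 to 78.5, or 1.65 to 5.75 times the median. This row held the widest member of the cluster, 1041 bp from 34628553 to 34629593, with a fold of 4.18 and a −log10 q of 65.1. A single peak of fold 3.03 lay between the Ifit1 start and this row.

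Around Ifit2 the nearest other peaks came in pairs. A pair of peaks with summits 2505 and 2092 bp before the start had folds of 6.62 and 5.75 and −log10 q of 64.6 and 57.8. A second pair, 2409 and 3000 bp past the start, had folds of 8.63 and 8.98 and −log10 q of 162 and 200. The latter values were 6.29 and 7.23 times the median of peaks of like fold, and 7.23 was exceeded only by the companion of Ifit1 among the 43. Upstream of Ifit1, a peak 3744 bp before the start had a fold of 8.27 and a −log10 q of 96.9.

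Elsewhere the members were plainer. Between Ifit2 and Ifit3 the weakest member by fold, 2.04 with a −log10 q of 9.79, lay 7864 bp before Ifit3, and a peak 6182 bp before Ifit3 had a fold of 5.98 and a −log10 q of 64.5. The other peaks of that stretch, 11963 and 14744 bp past Ifit2 and 2649 bp before Ifit3, had folds of 11.5, 3.54 and 5.40. A peak 15957 bp past Ifit3 had a fold of 12.4 and a −log10 q of 147. A row of 3 peaks from 34590228 to 34591851, 26.5 to 28.0 kb before Ifit1, had folds of 4.75 to 5.76 and −log10 q of 19.6 to 30.0. Peaks 19800, 15977 and 7200 bp before Ifit1 had folds of 11.0, 7.05 and 7.76. Before Ifit2, a peak 11.1 kb upstream had a fold of 10.8 and a −log10 q of 33.0, 0.819 times the median of peaks of like fold.

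The far side of Ifit1 differed from the rest of the window in how −log10 q stood to fold. All 6 peaks more than 20 kb past the Ifit1 start were within 0.896 to 1.14 times the median of peaks of like fold. Among the other 37 peaks the median was 2.56 times, with a range from 0.794 to 13.8, and 24 were at 2 times or more. The boundary of 20 kb was chosen after the values were seen, so this is a description and carries no test. Folds in the far group ran from 5.53 to 22.6, with a median of 12.2.

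The scores bear on how many values were averaged into a peak. A deposited score is near 10 times −log10 q, and the smallest whole number by which it must be multiplied to become whole is called its multiplier here; under a plain average, at least that many values entered. Multipliers of 8 or more were found for 17 of 43 members, against 38.6% of the list. All 6 peaks more than 20 kb past Ifit1 had one. The start peaks of Ifit1, Ifit3 and Ifit2 had multipliers of 10, 4 and 2, and the companion of Ifit1 had 2. A small multiplier can also arise from many values, so it sets no upper limit. The largest, 20, was found at the peak 15957 bp past Ifit3 and at the peak 21.3 kb past Ifit1. It exceeds the 19 samples, so it cannot be a count of these samples alone. No score in the list needed a multiplier above 20, and which values were averaged is not stated.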

How the data were processed

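ATAC-seq libraries of 19 BMDM samples were sequenced as paired reads, per the labels' protocols. Build mm39 and the tools MACS2 2.2.7.1, deepTools 3.5.1, STAR 2.7.9a and Picard 2.27.4 are named in the submitters' processing notes. What each tool did, whether reads were shifted and how peaks were combined are not stated there. The deposited list gives, in the narrowPeak layout, a score, a fold enrichment ratio and −log10 q per peak, with no sample named. Depth per sample is unknown. Other columns hold positions, summit offsets and −log10 p, which was not used.

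Coordinates were read as counted from 1: summit offsets then stayed within every peak, whereas 74 reached the width under a count from 0. The summit is the start plus the offset, and which sample it comes from is unknown. Start positions of the 3 genes are approximate and were supplied with the definition of the region. A promoter peak has its summit within 1000 bp of one of the 3 starts, which gave 4 peaks. Start peaks are the 3 of these that span a start, and the companion of Ifit1 is the other. Peaks of like fold are those in the same of 100 equal bins of the list. Rows of peaks are runs of at least 3 with summits at most 3000 bp apart.

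The rule for named peaks gave full values to promoter peaks, the 5 others of highest fold, the widest and the narrowest. Motifs were searched on both strands in RefSeq windows (GRCm38.p6). Members, lists and measures were chosen with earlier results of these data known. No statistical test was made, because no value belongs to a sample. Code was tested on simulated data. Alternatives were a stricter threshold, other bounds, distances, reference peaks and motifs. Computation used scipy 1.17.1, Biopython 1.88, pandas 2.3.3, matplotlib 3.10.9 and numpy 2.4.6 under Python 3.11.15.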

Additional observations from a re-analysis of the deposited data

How the results depend on the processing

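Of 51 alternative values over 15 results, 36 stayed near the reported value and 15 moved. Near meant within 1.5 times for counts and densities, and within the rounding of the start for distances. Medians had to stay within their 95% order-statistic interval, percentiles and shares within their 95% exact binomial interval. The 36 include values that could hardly move, so they overstate how far the results were tested. Requiring peaks wholly inside the window, or merging touching peaks, returned the same 43 peaks. Counting coordinates the other way shifted distances by less than the rounding. The share of family windows with the ISRE core fell from 66.7% to 44.4% with CT required. It counted as near because the interval from 9 windows, which are not independent, is wide. When the list kept only peaks whose −log10 q reached its median, the window held 26 peaks with a median −log10 q of 96.3. That setting removes weak peaks from the list, so percentiles of fold fell to 34.3 for the Ifit2 start peak, 51.6 for Ifit3, 63.8 for Ifit1 and 2.56 for the companion of Ifit1. Ranked by −log10 q instead of fold, the same peaks stood at 86.8, 89.0, 94.1 and 83.2. Among peaks of chromosome 19, Ifit3 moved from 75.8 to 76.2 and the companion from 13.9 to 15.0. Measured from the middle of the peak, distances were 111 bp for Ifit2, -200 bp for Ifit3 and -52.5 bp for Ifit1, against -82, 23 and -26 bp from the summit, so the side of the start depends on this choice for Ifit2 and Ifit3. The count of peaks at 2 or more times the −log10 q of peaks of like fold was 22 to 25 under 4 settings that were chosen after seeing the data. Starts from an mm39 annotation could not be tried. No paired analysis was possible because samples have no values of their own. Unknown depth limits what a missing peak can show.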

Other observations

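The first 10 kb outside the window held 4 peaks, all on the side before Ifit2 and none past Ifit1. The nearest, from 34498888 to 34499160, ended 840 bp short of the window and had a fold of 9.99 and a −log10 q of 149. The next, from 34497716 to 34497846, had a fold of 4.37 and a −log10 q of 51.6, and the one from 34497171 to 34497302 a fold of 5.46 and a −log10 q of 66.1. The farthest, from 34493152 to 34493498, had a fold of 20.4 and a −log10 q of 542. All 4 were 3.52 to 4.24 times the median −log10 q of peaks of like fold. Just inside the window on that side lay the peak of highest fold in the cluster, 33.1, and the last member on the other side, from 34663550 to 34663789, had a fold of 5.98 and a −log10 q of 17.6.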
